A study of Mus musculus with 12 samples.

Results

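The developmental pluripotency associated genes Dppa2, Dppa3, Dppa4 and Dppa5a were followed in mouse embryonic stem (ES) cells and in embryoid bodies. They were taken by symbol from a table of FPKM values (a level per library size and per kilobase of transcript) and by Ensembl gene ID from a table of counts, and all 4 were found, among 32285 gene IDs in the count table and 32245 rows in the FPKM table. The cells were described as E14Tg2a.IV ES cells and labelled as wild type (WT), as lacking Smad2 and Smad3 (S2/3DKO) or as lacking Smad4 (S4KO). Each genotype was sampled undifferentiated (day 0) and after LIF had been withdrawn and embryoid bodies had grown for 4 days (day 4), with 2 libraries in each of the 6 groups. The sources used here do not say how the knockout lines were made or whether each is a single clone. Nor do the labels say that the libraries of a group came from separate cultures, so the p-values measure only the spread between these samples, which may be technical.

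Smad2 and Smad3 carry signals from Nodal and activin receptors to the nucleus, and Smad4 is their common partner, which BMP signals also use. The Dppa symbols name genes grouped by their expression in pluripotent cells rather than by descent. Dppa2 and Dppa4 are neighbouring, related genes with SAP domains whose proteins work as a heterodimer on chromatin, keep bivalent promoters open to later activation and switch on Dux and other genes of the 2-cell embryo. Dppa3, also called Stella or PGC7, marks naive pluripotent cells and primordial germ cells, shields the maternal genome from demethylation in the zygote and restrains the maintenance methylation factor Uhrf1. Dppa5a, also called Esg1, encodes a small KH-domain RNA-binding protein and lies in a cluster of related genes with oocyte functions.

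All 4 genes are protein coding. In mm10 with GENCODE M21, Dppa4 (ENSMUSG00000058550) spans chr16:48283733-48294237 and Dppa2 (ENSMUSG00000072419) chr16:48303908-48319723, both on the plus strand and 9.671 kb apart. Dppa3 (ENSMUSG00000046323) spans chr6:122626410-122630272 on the plus strand, and Dppa5a (ENSMUSG00000060461) spans chr9:78367052-78368177 on the minus strand. Merged exon lengths were 1662 bases for Dppa4, 2447 for Dppa2, 892 for Dppa3 and 619 for Dppa5a, so Dppa3 and Dppa5a are short transcripts. The annotation also lists pseudogene copies of Dppa3 and Dppa5a, and how the authors' counting shared reads among such copies is not given in the sources used here, so the counts of Dppa3 and Dppa5a are uncertain to that extent. A further member, Dppa1, reached no more than 17 counts in a library and a highest FPKM of 0.198, and it was left out of what follows.

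Library totals ran from 31566376 counts, in S4KO day 4 replicate 2, to 55806858. Several features set libraries apart. In the WT day 0 libraries, ribosomal protein genes took 14.99% and 10.99% of counts, against 4.995% to 7.82% elsewhere, and genes with under 1000 bases of exon (n = 382) stood a median of 1.27 and 0.816 log2 units above their mean over all libraries, against -0.431 to 0.219 elsewhere. Mitochondrial transcripts took 6.74% of counts in S2/3DKO day 0 replicate 2 and 1.87% to 3.93% in the others. Smad2, Smad3 and Smad4 were still transcribed in the lines labelled as lacking them, which whole-gene counts cannot set against a deletion. Mean Smad4 was not lower in S4KO than in WT, at 89.97 and 50.95 CPM at day 0 and 132.7 and 129.7 CPM at day 4. In S2/3DKO and WT, mean Smad2 was 42.8 and 34.1 CPM at day 0 and 47.5 and 83.0 CPM at day 4. Mean Smad3 was 16.4 and 10.6 CPM at day 0 and 30.0 and 49.0 CPM at day 4 in these lines. Hprt stood at 208 ± 6.11 CPM (SD, n = 2) in S4KO at day 0 and at no more than 0.724 CPM in every WT and S2/3DKO library, and the Y-linked gene Uty stood at 6.58 ± 2.01 CPM in WT and 0.0304 ± 0.0154 CPM in S2/3DKO at day 0, with Xist at 0.938 ± 0.141 and 56.6 ± 33.1 CPM. The Hprt, Uty and Xist values thus differed between genotypes described as the same ES cell line. Differences of either knockout from WT, and between the knockouts, may therefore also carry differences between lines or clones, which cannot be told apart from the genotype. Because of the short genes, a length and GC correction of the counts was run beside the main test, and its values are given where they change the call of a gene described.

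Levels between genes can be compared only per transcript length. On the FPKM scale Dppa5a was the most abundant of the 4 genes in 12 of 12 libraries, 11.5 to 64.8 times the level of Dppa4. It ranked 7 among all genes by FPKM in both WT day 0 libraries and 143 in S2/3DKO day 4 replicate 2, and it took 0.0915% to 0.826% of the summed FPKM of a library. Dppa4 came next, at 34.6 to 93.6 FPKM, and stood above Dppa2 (9.69 to 52.3 FPKM) by 1.66 to 5.15 times in 12 of 12 libraries. Dppa3 (8.25 to 39.7 FPKM) was below Dppa4 in 12 of 12 libraries, whereas Dppa2 exceeded Dppa3 in 7 of 12.

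**Figure D1:**
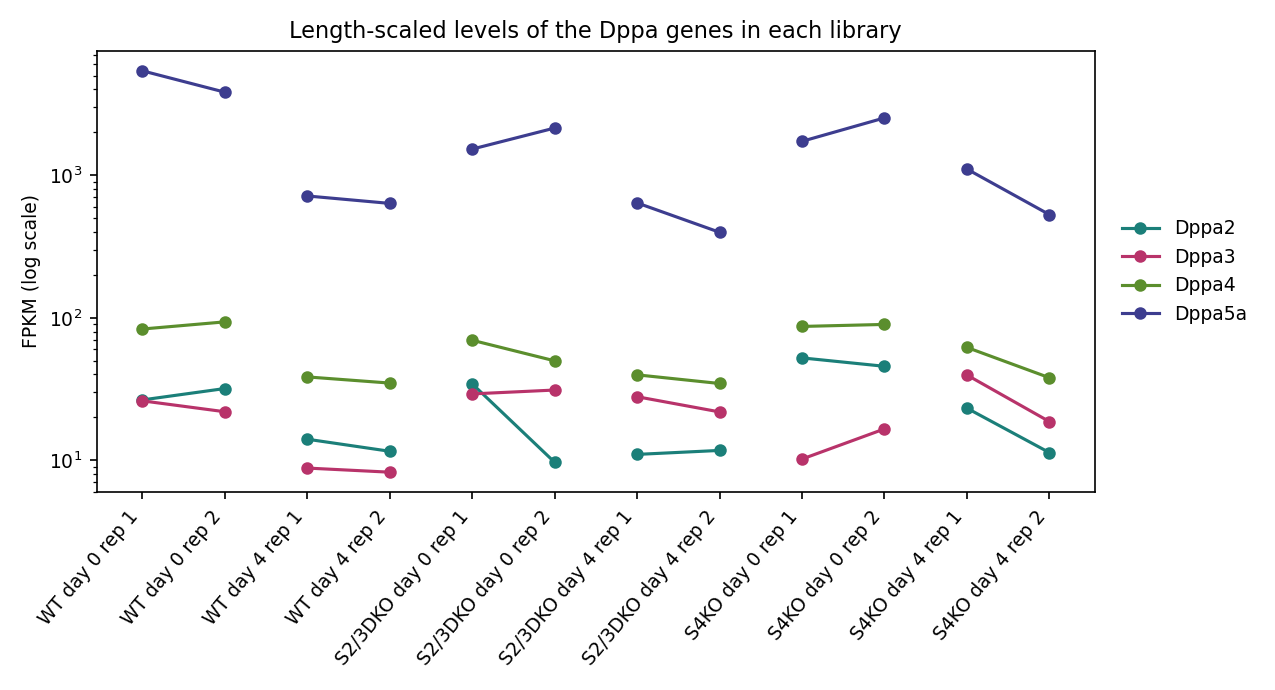
FPKM of the 4 Dppa genes on a log axis in each of the 12 libraries, with a line joining the 2 replicates of a group. Dppa5a lies above the other genes in every library, between 398 and 5401 FPKM, and the lines of Dppa2 and Dppa3 cross.

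All remaining levels are counts scaled to library size after TMM normalisation (CPM), which serve to compare libraries for 1 gene. Differences are log2 fold changes ± SE from edgeR's quasi-likelihood test on the counts of all 18693 genes tested, with Benjamini-Hochberg adjustment over those genes. Genes whose adjusted p lay below 0.05 are described as called. With the length and GC correction, 41.6% of all genes were called between the days in WT, 14.5% in S2/3DKO and 15.2% in S4KO, and at day 0 30.1% in S2/3DKO and 16.6% in S4KO against WT. At day 4 the corrected shares against WT were 22.8% and 4.53%.

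**Figure D2:**
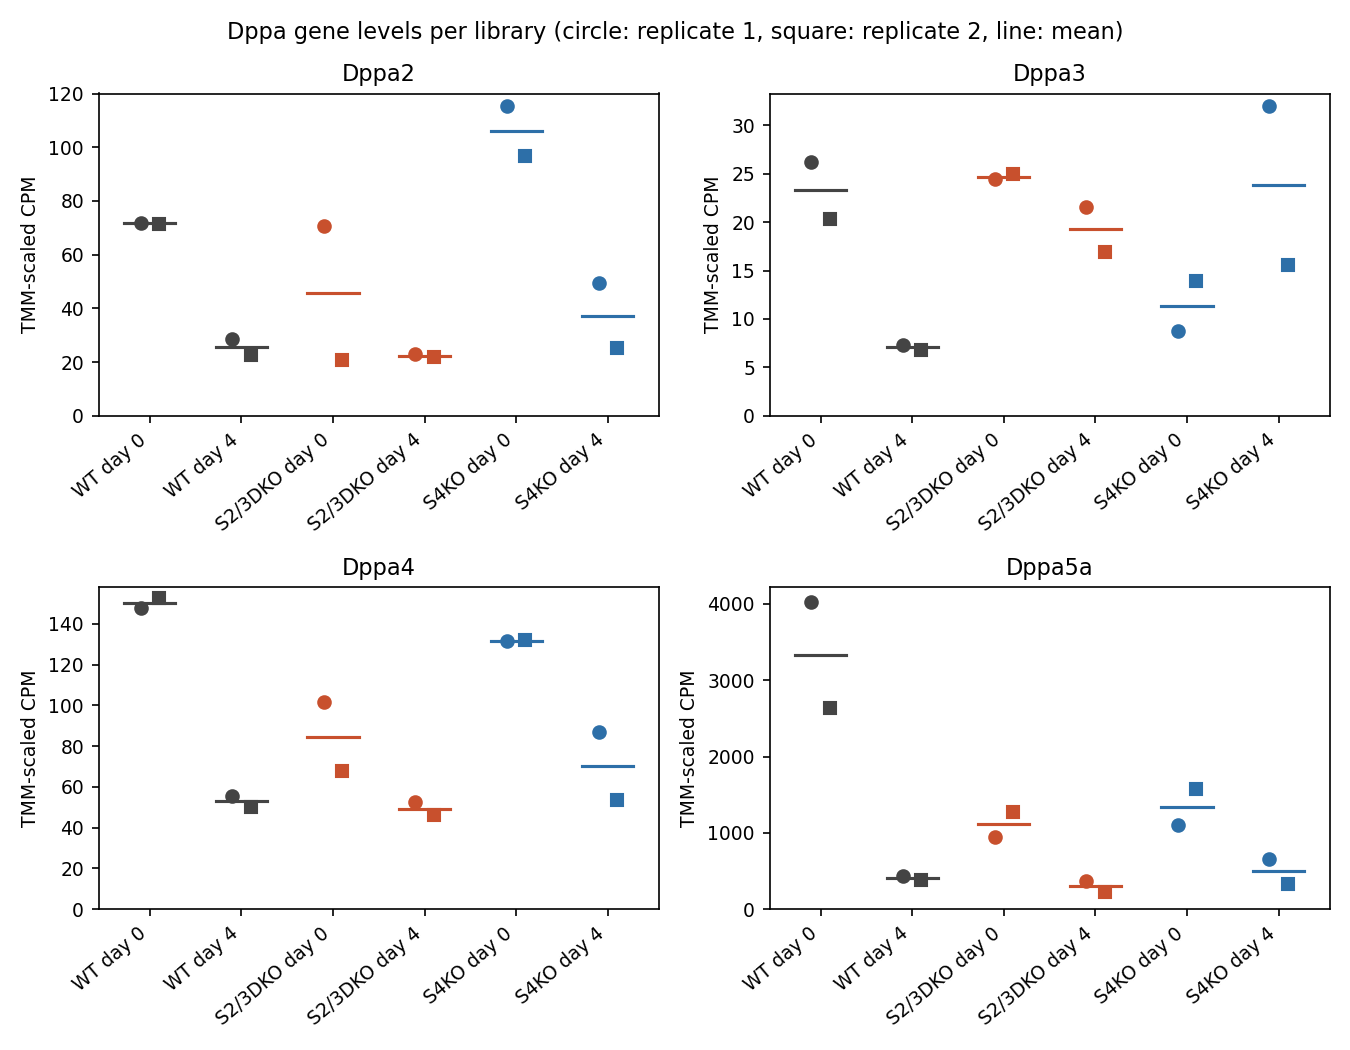
TMM-scaled CPM of each Dppa gene in the 12 libraries, with circles for replicate 1, squares for replicate 2 and lines for the group mean. Dppa2, Dppa4 and Dppa5a are lower at day 4 than at day 0 in the mean of every genotype, whereas the mean of Dppa3 falls from 23.3 to 7.09 CPM in WT and is higher at day 4 in S4KO.

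Differentiation of WT cells addresses how these genes respond when LIF is withdrawn and Smad signalling is intact. All 4 Dppa genes fell from day 0 to day 4, where 43.6% of all genes tested were called and 19.9% were called lower. Dppa5a fell most, by 8.02-fold, Dppa3 by 3.28-fold, Dppa4 by 2.84-fold and Dppa2 by 2.80-fold. On the corrected scale the order changed, with Dppa5a at -1.74, Dppa2 at -1.40, Dppa4 at -0.77 and Dppa3 at -0.76 on the log2 scale. For none of the 4 genes did the WT libraries of the 2 days overlap. The share of all genes without overlap was not counted, here or below, so separation of libraries is description only.

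Dppa4, the chromatin partner of Dppa2, was measured at 148 and 153 CPM in the WT day 0 libraries and at 55.6 and 50.2 CPM at day 4 (-1.51 ± 0.26, adjusted p = 0.00136). Its 2 replicates lay close together on each day. The call held in every alternative run, with adjusted p from 5.69e-07 to 0.0300, and the difference was -0.77 with the length and GC correction.

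Dppa2 stood at 71.8 and 71.5 CPM in WT at day 0 and at 28.6 and 22.7 CPM at day 4 (-1.48 ± 0.47, adjusted p = 0.0240). The value was close to that of Dppa4, with a wider error, but with the correction it was -1.40 against -0.77 for Dppa4. Leaving out WT day 0 replicate 1 or 2 gave adjusted p = 0.0854 and 0.0725, leaving out WT day 4 replicate 1 or 2 gave 0.0600 and 0.111, and limma on log2(FPKM + 1) gave 0.0558, or 0.146 without a filter on low values.

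Dppa3 stood at 26.2 and 20.4 CPM in WT at day 0 and at 7.36 and 6.82 CPM at day 4 (-1.72 ± 0.36, adjusted p = 0.00319). The WT day 4 libraries were the lowest of all 12 for this gene. With the length and GC correction the difference was -0.76 ± 0.31 and the call was lost (adjusted p = 0.0734).

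Dppa5a stood at 4031 and 2636 CPM in WT at day 0 and at 442 and 389 CPM at day 4 (-3.00 ± 0.39, adjusted p = 0.000344). Both WT day 0 libraries lay above every other library. The difference was -1.74 ± 0.29 with the length and GC correction (adjusted p = 0.00114), and the call held in every alternative run, with adjusted p up to 0.00493.

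The same step in the knockouts moved fewer Dppa genes past the threshold. In S2/3DKO, 1 of 4 was called, against 7.03% of all genes (3.46% lower), and in S4KO 1 of 4, against 8.90% (3.81% lower). In both lines that gene was Dppa5a, which fell by 3.73-fold and 2.70-fold.

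For Dppa5a the S2/3DKO libraries gave 949 and 1279 CPM at day 0 and 368 and 229 CPM at day 4 (-1.90 ± 0.37, adjusted p = 0.0168). The days did not overlap, but without S2/3DKO day 4 replicate 1 or 2 the call was lost (adjusted p = 0.0624 and 0.169). In S4KO the libraries gave 1108 and 1569 CPM at day 0 and 664 and 327 CPM at day 4 (-1.43 ± 0.37, adjusted p = 0.0334). Again the days did not overlap, and the call was lost without S4KO day 0 replicate 2 (adjusted p = 0.141), without S4KO day 4 replicate 2 (-1.02, adjusted p = 0.271), with the length and GC correction (-0.91, adjusted p = 0.0526), with only the S4KO libraries in the fit (adjusted p = 0.101) and with limma on unfiltered log2(FPKM + 1) (adjusted p = 0.110).

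By edgeR, Dppa2 and Dppa4 were not called in either knockout. Dppa4 gave 102 and 67.7 CPM in S2/3DKO at day 0 and 52.7 and 46.0 CPM at day 4 (-0.78 ± 0.26, adjusted p = 0.0933). In S4KO it gave 131 and 132 CPM at day 0 and 86.9 and 53.7 CPM at day 4 (-0.91 ± 0.26, adjusted p = 0.0527). The days did not overlap in either line, and DESeq2 called Dppa4 in both (adjusted p = 0.0404 in S2/3DKO and 0.0108 in S4KO).

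Of the 4 genes, Dppa2 spread most between the S2/3DKO day 0 replicates, relative to its mean. In S2/3DKO it gave 70.6 and 20.8 CPM at day 0 and 22.9 and 21.96 CPM at day 4 (-1.03 ± 0.46, adjusted p = 0.194), so replicate 2 of day 0 lay below both day 4 libraries. The difference was 0.09 without replicate 1 of day 0 and -1.67 without replicate 2 (adjusted p = 0.0276), so its direction rests on those libraries. In S4KO it gave 115 and 96.8 CPM at day 0, the highest of all groups, and 49.3 and 25.3 CPM at day 4 (-1.51 ± 0.47, adjusted p = 0.0682), with no overlap. DESeq2 (adjusted p = 0.0108) and edgeR without a filter on low counts (0.00549) called the S4KO difference.

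Replicate 2 of S2/3DKO at day 0 also stood apart in marker genes. The summed CPM (for sums, per library total without TMM) of 14 naive pluripotency genes was 2456 there and 3881 in replicate 1, that of 8 shared pluripotency genes 3211 and 5785, and that of 14 trophectoderm genes 1143 and 744. With its higher mitochondrial share, this library held less Dppa2 and Dppa4 and more Dppa5a than replicate 1. The part of these differences in the Dppa values was not tested, and in bulk RNA a smaller share of cells expressing a gene and less RNA per cell cannot be told apart.

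Dppa3 took another course in S4KO. It gave 24.5 and 25.0 CPM in S2/3DKO at day 0 and 21.6 and 16.9 CPM at day 4 (-0.36 ± 0.34, adjusted p = 0.558), whereas in S4KO it gave 8.80 and 13.9 CPM at day 0 and 32.04 and 15.6 CPM at day 4 (1.07 ± 0.35, adjusted p = 0.0806). Both S4KO day 4 libraries lay above both day 0 libraries, although the test did not call the difference. The length and GC correction gave 1.46 ± 0.32 and called it (adjusted p = 0.0136), as did DESeq2 (adjusted p = 0.0324). Without S4KO day 4 replicate 1, however, the value was 0.39 (adjusted p = 0.545).

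The difference between genotypes in the day 4 response was tested directly. Of the 4 Dppa genes, 0 were called for S2/3DKO against WT (6.10% of all genes), 0 for S4KO against WT (0.150%, 28 genes) and 0 for S4KO against S2/3DKO (0.00535%, 1 gene) by edgeR. The gene totals of these contrasts are unstable: for S4KO against WT there were 2008 calls without WT day 4 replicate 2 and 1553 with DESeq2, and for S4KO against S2/3DKO 243 with DESeq2. At an unadjusted p below 0.05 the counts were 1, 2 and 1, DESeq2 called 1, 2 and 0, and limma on log2(FPKM + 1) called 0, 1 and 0. The highest of these differences was that of Dppa3 between S4KO and WT, at 2.78 ± 0.50 (adjusted p = 0.0606), where the 95% interval (from the t distribution with the fit's degrees of freedom) ran from 1.69 to 3.88. Between S2/3DKO and WT the Dppa3 response differed by 1.36 ± 0.49 (adjusted p = 0.103). For Dppa5a the responses of the knockouts differed from that of WT by 1.10 ± 0.51 in S2/3DKO (adjusted p = 0.178) and by 1.57 ± 0.51 in S4KO (adjusted p = 0.134). These contrasts share the WT libraries, in which the level of short transcripts differed most between the days. On the corrected scale the Dppa5a values were 0.40 and 0.82, and the Dppa3 value for S4KO was 2.22 ± 0.45 (adjusted p = 0.0610).

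**Figure D3:**
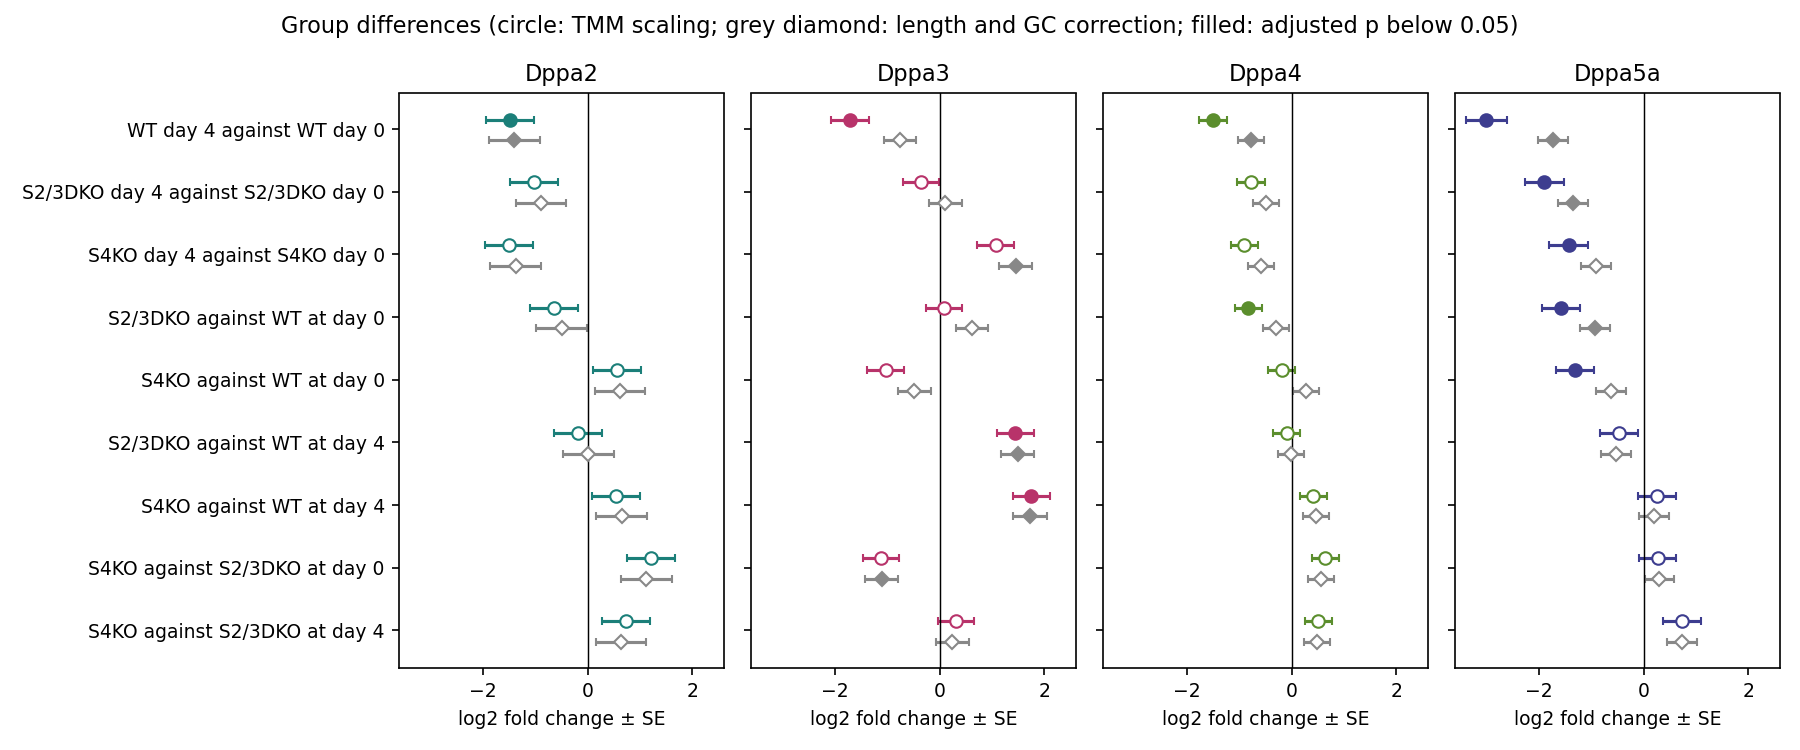
Log2 fold changes ± SE of the Dppa genes for 9 comparisons, with coloured circles for TMM scaling, grey diamonds for the length and GC correction and filled symbols for adjusted p below 0.05. The drop of Dppa5a in WT moves from -3.00 to -1.74 with the correction, and the higher level of Dppa3 in both knockouts than in WT at day 4 is filled on both scales.

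Comparisons at day 0 ask whether loss of Smad2 and Smad3, or of Smad4, alters the undifferentiated state. In S2/3DKO, 2 of 4 Dppa genes were lower than in WT, against 31.0% of all genes called (14.4% lower), and in S4KO 1 of 4, against 19.6% (9.14% lower). Dppa5a was the gene lower in both, by 2.99-fold in S2/3DKO and 2.49-fold in S4KO. Each of these comparisons uses the WT day 0 libraries that also enter the WT day 4 comparison, so the lower Dppa5a of the knockouts at day 0 and the larger drop in WT are not separate observations.

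At day 0, Dppa5a differed by -1.58 ± 0.37 between S2/3DKO and WT (adjusted p = 0.00956), with no overlap of libraries. Omitting WT day 0 replicate 1 raised the adjusted p to 0.0915, omitting S2/3DKO day 0 replicate 1 raised it to 0.0575, and limma on unfiltered log2(FPKM + 1) gave 0.0706. It held with the length and GC correction, at -0.93 ± 0.28 (adjusted p = 0.0308). Between S4KO and WT the Dppa5a difference was -1.32 ± 0.37 (adjusted p = 0.0300), again with no overlap. It was -0.63 and not called with the correction (adjusted p = 0.147), and omitting WT day 0 replicate 1 (0.229) or S4KO day 0 replicate 1 (0.209) or using limma on unfiltered values (0.147) also ended it.

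Dppa4 was lower in S2/3DKO than in WT at day 0, by 1.78-fold (-0.83 ± 0.26, adjusted p = 0.0328). All 4 libraries kept apart, but the call was lost without either WT day 0 replicate (adjusted p = 0.128 and 0.119), without S2/3DKO day 0 replicate 2 (-0.55, adjusted p = 0.224), without either S2/3DKO day 4 replicate (0.0612 and 0.0614), with only the 2 groups in the fit (0.0505), with limma (0.0783) and with the length and GC correction (-0.30, adjusted p = 0.395). In S4KO the Dppa4 difference from WT was -0.19 ± 0.26 (adjusted p = 0.647), with a 95% interval from -0.76 to 0.38. On FPKM the S4KO and WT means were 88.35 and 88.5.

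Dppa2 was not called in either knockout at day 0 (-0.65 ± 0.46 in S2/3DKO, adjusted p = 0.302, and 0.57 ± 0.46 in S4KO, adjusted p = 0.411). Both S4KO libraries lay above both WT libraries. Dppa3 differed by 0.09 ± 0.34 in S2/3DKO (adjusted p = 0.874) and by -1.03 ± 0.35 in S4KO (adjusted p = 0.0582), where both libraries lay below WT. The S4KO value of Dppa3 was -0.48 with the length and GC correction (adjusted p = 0.310), whereas DESeq2 (0.0193), edgeR without a filter (0.0382) and a fit of only the 2 groups (0.0439) called it. The Dppa2 difference of S2/3DKO from WT was -1.78 without S2/3DKO day 0 replicate 1 (adjusted p = 0.0128) and -0.0021 without replicate 2.

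Between the knockouts at day 0, edgeR called 0 of 4 Dppa genes, against 5.53% of all genes. At an unadjusted p below 0.05 the count was 3, DESeq2 called 1 and limma on log2(FPKM + 1) called 0. Dppa2 was 1.22 ± 0.46 higher in S4KO (adjusted p = 0.156), Dppa4 0.64 ± 0.26 higher (0.183), and the Dppa3 difference was -1.12 ± 0.35 (0.0886). With the length and GC correction Dppa3 was called (-1.11, adjusted p = 0.0450), and edgeR without a filter called Dppa2 (0.0418) and Dppa3 (0.0446). The Dppa3 libraries of the 2 lines did not overlap, nor did those of Dppa2 and Dppa4. Dppa5a differed by 0.26 ± 0.36 (adjusted p = 0.735), with a 95% interval from -0.52 to 1.05 and overlapping libraries.

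At day 4 the 4 genes parted. Dppa3 was higher than in WT in both knockouts, by 2.72-fold in S2/3DKO and 3.36-fold in S4KO, and it was the 1 called gene of 4 in each. Both comparisons use the same WT day 4 libraries, which also enter the drop of Dppa3 in WT, so these are not separate observations. Of all genes, 15.2% were called for S2/3DKO (7.21% higher) and 1.73% for S4KO (0.679% higher). Of the genes called in S4KO, 39.3% were higher, and 52.5% with the length and GC correction. Dppa2, Dppa4 and Dppa5a were not called in either line.

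The Dppa3 difference in S2/3DKO was 1.44 ± 0.35 (adjusted p = 0.0193), and all 4 libraries kept apart. It was lost without WT day 4 replicate 1 or 2 (adjusted p = 0.0659 and 0.0741) and without S2/3DKO day 4 replicate 1 or 2 (0.138 and 0.0664). In S4KO it was 1.75 ± 0.36 (adjusted p = 0.0351). It was lost without either WT day 0 replicate (adjusted p = 0.0660 and 0.0655), either WT day 4 replicate (0.136 and 0.117), either S2/3DKO day 4 replicate (0.0644 and 0.0639) or S4KO day 4 replicate 1 (1.12, 0.305), with only the 2 groups in the fit (0.137) and with limma on unfiltered values (0.0623). The length and GC correction kept both calls, at 1.49 ± 0.32 (adjusted p = 0.00763) and 1.73 ± 0.32 (adjusted p = 0.0148).

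S4KO day 4 replicate 1 held more of all 4 Dppa genes than replicate 2. Its summed naive pluripotency genes were also higher (2114 against 954 CPM), as were 10 primordial germ cell genes (778 against 391 CPM), and its 11 primed epiblast genes were lower (632 against 1599 CPM). The share of this difference between replicates in the Dppa3 value was not tested. Fibroblast markers stayed between 10.6 and 60.5 CPM in sum in every library.

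No other day 4 difference was called. Against WT, Dppa2 differed by -0.19 ± 0.46 in S2/3DKO and 0.54 ± 0.46 in S4KO (adjusted p = 0.824 and 0.687), and Dppa4 by -0.10 ± 0.26 and 0.41 ± 0.26 (0.841 and 0.540). Dppa5a differed by -0.48 ± 0.36 and 0.25 ± 0.36 (0.415 and 0.852). Between the knockouts, edgeR called 0 of 4 Dppa genes, against 12.3% of all genes. The count at an unadjusted p below 0.05 was also 0, as were those of DESeq2 and limma, and the values were 0.74 ± 0.46 for Dppa2, 0.51 ± 0.26 for Dppa4, 0.31 ± 0.34 for Dppa3 and 0.73 ± 0.36 for Dppa5a. The 95% interval of Dppa4 ran from -0.059 to 1.08 and that of Dppa5a from -0.062 to 1.52.

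The order of the 6 groups differed between the genes. For Dppa4 the group means descended from 150 ± 3.55 CPM (SD, n = 2) in WT day 0 through 132 ± 0.484 in S4KO day 0, 84.6 ± 23.9 in S2/3DKO day 0, 70.3 ± 23.5 in S4KO day 4 and 52.9 ± 3.86 in WT day 4 to 49.4 ± 4.74 in S2/3DKO day 4. Only WT day 0 and S4KO day 0, the top 2, were free of overlap with the next group. For Dppa2 the order began with S4KO day 0 (106 ± 13.1 CPM) and WT day 0 (71.7 ± 0.232), and the 4 groups below overlapped with their neighbours in the order. For Dppa5a the day 0 groups came first, at 3334 ± 987, 1338 ± 326 and 1114 ± 233 CPM in WT, S4KO and S2/3DKO, and the 2 knockouts overlapped. For Dppa3 the groups S2/3DKO day 0, S4KO day 4, WT day 0 and S2/3DKO day 4 lay between 19.3 and 24.7 CPM with overlapping libraries, above S4KO day 0 (11.4 ± 3.62) and WT day 4 (7.09 ± 0.379).

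Across the 12 libraries log2 CPM of Dppa2 and Dppa4 correlated at r = 0.930, of Dppa4 and Dppa5a at 0.909 and of Dppa2 and Dppa5a at 0.711. Dppa3 correlated at 0.0833 with Dppa2, 0.267 with Dppa4 and 0.344 with Dppa5a. These values describe libraries that share genotype, day and depth, and they carry no test.

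The genes with the most similar profile over the 12 libraries were taken from 11738 genes compared. For Dppa2 they were Klf5 (r = 0.969), a Krüppel-like factor of naive pluripotent cells, Dapp1 (0.954), an adaptor of phosphoinositide signalling, Cdc5l (0.953), a splicing factor, and Syce1 (0.953), which encodes a synaptonemal complex protein. For Dppa4 they were Cnot10 (0.983), a subunit of the CCR4-NOT deadenylase complex, Mymx (0.983), a myoblast fusion protein, Cyb5r2 (0.978), a cytochrome b5 reductase, and Ppef2 (0.977), a protein phosphatase. Dppa3 had only looser companions, led by the neuronal RNA-binding protein gene Elavl3 (0.877), then Prr15l (0.818), Grhl1 (0.795), an epithelial transcription factor, and Josd1 (0.784), a deubiquitinase. For Dppa5a they were Gsta4 (0.980), a glutathione transferase gene, Sdhc (0.978), a succinate dehydrogenase subunit, Znrd1as (0.976) and Ndufaf5 (0.974), an assembly factor of respiratory complex I. Znrd1as is an antisense gene, and whether the counting used strand is not given in the sources used here. On log2 FPKM, 1, 3, 2 and 3 of the 4 genes named for Dppa2, Dppa3, Dppa4 and Dppa5a were again among the closest 4.

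Neighbours of the Dppa genes were taken from the nearest 3 genes tested on each side. Beyond Dppa2 lies Morc1, a repressor of retrotransposons in male germ cells, 111.5 kb away, which fell from 203 CPM to 17.9 CPM in WT (-3.50 ± 0.42, adjusted p = 0.000274), and also fell in S2/3DKO (-2.36, adjusted p = 0.0103) and S4KO (-2.23, adjusted p = 0.00818). Dzip3 and Cip2a, further along chromosome 16, rose in WT by 1.45 and 1.06 (adjusted p = 0.00396 and 0.00908), but not with the length and GC correction (0.14 and 0.23, adjusted p = 0.596 and 0.268). On the other side Nectin3, 1785 kb from Dppa4, was not called in the day 4 comparison of any genotype (0.37, -0.33 and 0.49 in WT, S2/3DKO and S4KO), though it was with the correction in WT (-0.73, adjusted p = 0.00443).

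Dppa3 lies in a cluster of pluripotency genes on chromosome 6. Gdf3, a TGF-beta family ligand 16.3 kb away, fell from 88.4 to 15.5 CPM in WT (-2.52 ± 0.31, adjusted p = 0.000302), and also fell in S2/3DKO (-1.86, adjusted p = 0.00852) and S4KO (-1.18, adjusted p = 0.0319). Nanog, the core pluripotency factor 77.2 kb away, fell from 487 to 268 CPM in WT (-0.87 ± 0.24, adjusted p = 0.0142, and -0.59, 0.0601, with the correction), in S2/3DKO (-2.19, adjusted p = 0.00273) and in S4KO (-1.18, adjusted p = 0.0146). Apobec1, a cytidine deaminase gene, fell in all 3 genotypes (-2.48, -2.29 and -1.80, adjusted p = 0.000410, 0.00583 and 0.00878). Slc2a3, a glucose transporter gene, rose by 1.004, 0.79 and 0.78 (adjusted p = 0.00168, 0.0293 and 0.0234), and by 0.39 in WT with the correction (adjusted p = 0.0564). So Gdf3, Nanog and Apobec1 fell in S4KO, while Dppa3 between them stood higher at day 4 than at day 0 without passing the test.

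Ooep, a maternal-effect gene of the same KH-domain family, lies 7.93 kb from Dppa5a. It fell from 160 to 13.9 CPM in WT (-3.52 ± 0.42, adjusted p = 0.000255), in S2/3DKO (-2.15, adjusted p = 0.0133) and in S4KO (-1.78, adjusted p = 0.0179). Gsta4, 157.7 kb away on the other side and the gene most like Dppa5a in profile, fell from 778 to 120 CPM in WT (-2.70 ± 0.25, adjusted p = 0.000115), in S2/3DKO (-1.65, adjusted p = 0.00699) and in S4KO (-1.51, adjusted p = 0.00571). Ick and Fbxo9, beyond Gsta4, were not called in these 3 comparisons (0.19 and -0.45 in WT, adjusted p = 0.566 and 0.130), although Ick was with the correction in WT (-0.81, adjusted p = 0.0295). Beyond Ooep, Ddx43, a DEAD-box helicase gene 27.6 kb from Dppa5a, fell from 15.5 to 3.98 CPM in WT (-1.96 ± 0.41, adjusted p = 0.00331) and was not called in S2/3DKO (-1.30, 0.0744) or S4KO (-0.94, 0.163). Cgas, the cytosolic DNA sensor gene, was low, at 1.37 and 0.394 CPM in WT on the 2 days (-1.79 ± 0.49, adjusted p = 0.0136), and was not called in S2/3DKO (-1.70, 0.0537, or 0.0351 with the correction) or S4KO (-1.48, 0.0734).

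**Figure D4:**
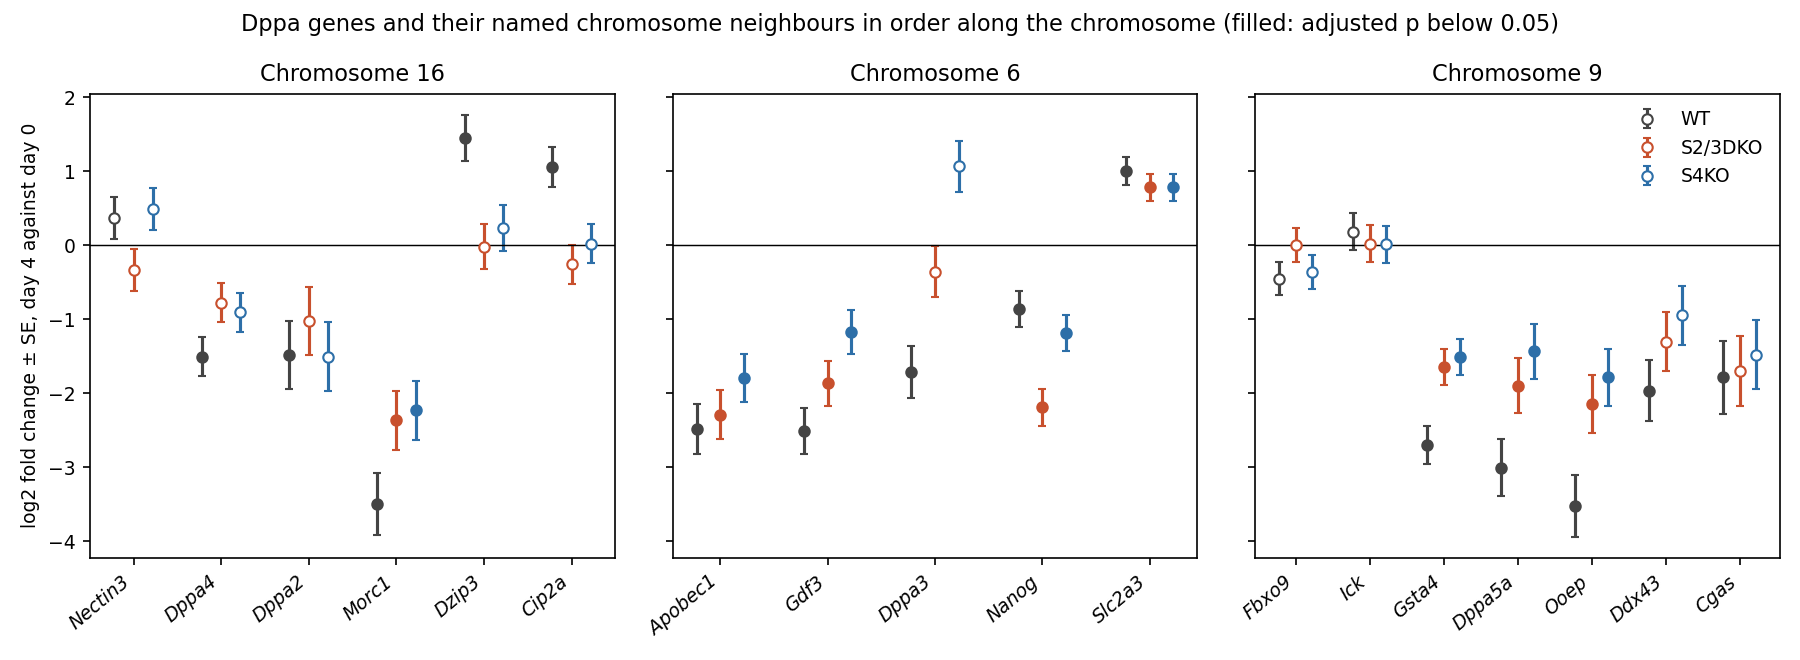
Log2 fold changes ± SE from day 0 to day 4 of the Dppa genes and their named neighbours, in chromosome order but not to scale, for WT, S2/3DKO and S4KO (filled symbols: adjusted p below 0.05). Dppa3 in S4KO lies above 0, at 1.07, between Gdf3 at -1.18 and Nanog at -1.18.

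Other genes linked to the Dppa genes were read from lists. Of all genes tested, 23.8% were called higher between the days in WT, 3.57% in S2/3DKO and 5.08% in S4KO, beside the shares called lower given above. Of 14 naive pluripotency genes, 14 fell in WT from day 0 to day 4 (median -2.58, against 0.0831 for all genes), 10 in S2/3DKO (-1.78 against 0.0175) and 6 in S4KO (-1.37 against 0.0217). Among them Nr0b1, an orphan nuclear receptor gene, changed by -4.64 in WT (adjusted p = 0.000646) and Klf4, a Krüppel-like factor gene, by -4.17 (adjusted p = 0.000966). Of 11 primed epiblast genes, 11 rose in WT (median 2.31) and 7 in S4KO (1.86). In S2/3DKO edgeR called 0 of them (0.274), with 3 at an unadjusted p below 0.05.

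Genes of the 2-cell embryo, which the Dppa2 and Dppa4 proteins are known to switch on, were set beside Dppa2 and Dppa4. They did not move in 1 direction relative to these genes over the comparisons. At day 0, 14 of 18 tested members were higher in S2/3DKO than in WT (median 1.87, against 0.0196 for all genes), where 16.7% of all genes were called higher. In this comparison Dppa4 was lower, a call lost with the correction, and Dppa2 was not called. Within S2/3DKO day 0, the summed 2-cell genes were 212 CPM in replicate 1 and 94.4 CPM in replicate 2, and Dppa2 and Dppa4 were also higher in replicate 1. Zscan4e, a telomere-regulating zinc-finger gene with near-identical copies among which reads cannot be placed with certainty, stood at 2.55 ± 0.457 CPM in WT day 0 and 18.9 ± 10.8 CPM in S2/3DKO day 0 (2.89 ± 0.61, adjusted p = 0.00671). Usp17le, a deubiquitinase gene of another such family, stood at 0.852 and 8.57 CPM (3.32 ± 0.59, adjusted p = 0.00333). In WT 6 of 18 rose from day 0 to day 4 (median 0.993), where 23.8% of all genes were called higher. With the length and GC correction 9 of 18 rose (median 1.64), where 4121 of 18682 genes were called higher. The summed 2-cell genes were 27.98 and 32.89 CPM in the WT day 0 libraries and 96.24 and 74.14 CPM at day 4. Dppa2 and Dppa4 fell in this comparison. In S4KO between the days, 1 of 18 was called lower and 0 higher (median -1.21), where 3.81% of all genes were called lower. At an unadjusted p below 0.05 by edgeR the count was 9. In S2/3DKO between the days 0 were called (median -0.608), with 2 at an unadjusted p below 0.05. In both knockouts Dppa2 and Dppa4 were also lower at day 4 in the mean, without being called. At day 0, 4 of 18 were higher in S4KO than in WT (median 1.25), where 1955 of 18693 genes were called higher. At day 4, 0 were called between S4KO and WT (median -1.2), with 9 at an unadjusted p below 0.05. Dppa2 and Dppa4 were not called in these comparisons of S4KO with WT. Duxf3, the Dux gene itself, stood at 0.245 to 1.11 CPM in the group means. It was not called in S2/3DKO against WT at day 0 (2.16, adjusted p = 0.0880), though with the correction it was (2.74, adjusted p = 0.0339). Nor was it called between the days in WT.

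Syce1, 1 of 2 listed genes reported to depend on Dppa2 and Dppa4, was also among the 4 genes closest to Dppa2 in profile. Its group means were 32.3 ± 1.13, 20.1 ± 9.605 and 51.8 ± 6.46 CPM at day 0 in WT, S2/3DKO and S4KO, and 7.21, 7.58 and 14.5 CPM at day 4. It fell in WT (-2.16, adjusted p = 0.00117), S2/3DKO (-1.41, adjusted p = 0.0401, but -1.11 and 0.0549 with the correction) and S4KO (-1.83, adjusted p = 0.0124), and at day 0 it was higher in S4KO than in S2/3DKO by 1.37 (adjusted p = 0.0488). The other listed gene, Nkx2-5, a cardiac homeobox gene, had group means of at most 0.217 CPM.

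Germline genes that promoter methylation silences in somatic cells, a class to which Syce1 also belongs, fell in part. Of 13 such genes 6 fell in WT (median -1.08, against 0.0831 for all genes), 6 in S2/3DKO (-1.13) and 7 in S4KO (-1.36). Hormad1, a meiotic chromosome axis gene, stood at 47.3 and 6.68 CPM in WT on the 2 days and at 176 and 62.7 CPM in S4KO, where it was higher than in WT at day 0 (1.90, adjusted p = 0.00834) and day 4 (3.23, adjusted p = 0.00156). Other members went the other way. Of the 13 genes, 3 were called higher and 2 lower in S4KO than in WT at day 0 (9.14% of all genes lower). At day 4, 1 was called higher and 1 lower (0.679% and 1.05% of all genes). Of 9 tested primordial germ cell genes, the cell type that Dppa3 marks, 5 fell in WT (median -1.01) and 2 fell and 1 rose in S2/3DKO (-0.593). Ifitm1, a transmembrane protein gene of early germ cells, changed by -2.84 in WT (adjusted p = 0.000287) and -1.34 in S2/3DKO (adjusted p = 0.0351). Tfap2c, a germ cell and trophectoderm transcription factor gene, was the 1 that rose in S2/3DKO (0.95, adjusted p = 0.0385).

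In S4KO edgeR called 0 of the 9 primordial germ cell genes between the days (median -0.271), with 1 at an unadjusted p below 0.05. Dppa3 is not in this list. At day 4, 1 of the 9 was called higher in S4KO than in WT (median 1.16), against 0.679% of all genes. In S2/3DKO, where Dppa3 was also higher than in WT, 1 of the 9 was called higher (median -0.337), against 7.21% of all genes. Dppa3 also marks naive cells. Of the 14 naive pluripotency genes, 1 was called higher and 0 lower in S4KO than in WT at day 4 (median 1.51). At an unadjusted p below 0.05 by edgeR the count was 11, and 6 for the germ cell genes. In S2/3DKO against WT, 1 naive gene was called higher and 1 lower (median 0.631). At day 4, where Dppa3 was higher than in WT, Prdm14 and Prdm1, transcription factor genes needed for germ cell fate, were 1.93 and 1.28 higher in S4KO without passing the test (adjusted p = 0.0735 and 0.0921, but 0.0381 and 0.0430 with the correction), and Tfap2c was called (1.53, adjusted p = 0.0109).

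The DNA methylation machinery, with which Dppa3 interferes, changed in both directions in WT, where 4 of 10 genes rose and 3 fell, against 23.8% and 19.9% of all genes. With the correction the counts were 2 and 4. The de novo methyltransferase gene Dnmt3b rose (2.603, adjusted p = 0.00217), its cofactor gene Dnmt3l fell (-2.30, adjusted p = 0.000416), and so did Zfp57, a guardian of imprints (-2.71, adjusted p = 0.000344). Uhrf1, the target of Dppa3, stood at 420.2 ± 29.6, 447 ± 97.8 and 410.5 ± 34.4 CPM at day 0 in WT, S2/3DKO and S4KO and at 266, 272 and 265 CPM at day 4. It fell in WT (-0.66, adjusted p = 0.0454) and was not called in the knockouts between the days (-0.71 and -0.63, adjusted p = 0.0964 and 0.127). With the correction the call was lost in WT (-0.46, adjusted p = 0.0787) and made in S2/3DKO (-0.78, adjusted p = 0.0259). In S4KO and S2/3DKO at day 4, where Dppa3 was higher than in WT, Uhrf1 differed from WT by -0.01 and 0.03. These are RNA levels, which do not measure the Uhrf1 protein or what Dppa3 does to it.

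Among 7 tested genes of KH-domain relatives and the maternal complex, 2 fell in each genotype between the days, Ooep and Khdc3, an oocyte gene of the Dppa5a family, where 19.9%, 3.46% and 3.81% of all genes were called lower. In WT 1 rose, Khdc1a, listed at 0 CPM at day 0 and at 0.104 CPM at day 4. Khdc3 stood at 31.8, 24.3 and 26.0 CPM at day 0 in WT, S2/3DKO and S4KO and at 0.864, 4.26 and 3.56 CPM at day 4 (-5.20 ± 0.63, adjusted p = 0.000285, in WT). At day 4 it was higher in S2/3DKO than in WT (2.30, adjusted p = 0.0207). Nlrp5, another maternal complex gene, had group means of at most 0.196 CPM, and Padi6 of at most 0.879 CPM.

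Markers of other lineages moved in the same comparisons. Of 14 trophectoderm genes 9 were higher in S2/3DKO than in WT at day 0 and 12 at day 4 (1 lower), and their summed level was 210 to 213 CPM in WT day 0 and 2660 to 3226 CPM in S2/3DKO day 4. Of 16 extraembryonic endoderm genes 16 rose in WT from day 0 to day 4, with sums from 78.2 to 93.9 CPM at day 0 and from 1453 to 1744 CPM at day 4. At day 4, where Dppa3 was higher than in WT in both knockouts, 11 of 16 extraembryonic endoderm genes were lower in S4KO (sums of 223 to 312 CPM), where 1.05% of all genes were called lower. In S2/3DKO, where 1495 of 18693 genes were called lower, 7 of 16 were lower, as were 10 of 11 primed epiblast genes. The part of these cell types in the levels of the Dppa genes was not tested.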

How the data were processed

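The counts that the authors deposited are whole numbers per Ensembl gene ID. The FPKM values that the authors deposited have 1 row per symbol. Per the submitters' processing notes, the build was mm10 and the tools included StringTie, Cufflinks and DESeq2, with no version or role given. Libraries were made from 500 ng of RNA with the TruSeq RNA kit v2, per the labels' protocols. Values of 1 (4966) were rarer than values of 2 (6989), so the counts need not be direct read tallies.

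Groups came from the titles. Symbols came from GENCODE M21 and the tables given (32235 of 32285 IDs). Counts were fitted with edgeR 4.0.16 (R 4.3.3) with TMM scaling and filterByExpr, 12 libraries and 1 coefficient per group, in 12 contrasts. The code was tested on simulated data. Across genes the biological coefficient of variation was 0.286 (common value). Alternatives were a filter of 1 CPM in 2 libraries, no filter, RLE factors, limma 3.58.1 on log2(FPKM + 0.1) and, filtered on low values or not, on log2(FPKM + 1), DESeq2 1.42.0, a fit to only the compared groups, a block for the replicate number, leaving out each library in turn, and a correction for trends with GC content and exon length in each library (splines with 5 degrees of freedom, 99.9% of genes tested).

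The members and the 12 gene lists were chosen with earlier results of these data known. Named beside the 4 genes were the 4 genes most correlated with each (at least 5 CPM in the highest group), the nearest 3 tested genes on each side, and up to 4 called members of a list with the highest absolute change. List members named for their role (Uhrf1, Duxf3, Nkx2-5, Nlrp5, Padi6, Prdm1 and Prdm14 in S4KO, Dppa1 and Hprt) were chosen after their values were seen. Some of the neighbours are not reported here.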

Additional observations from a re-analysis of the deposited data

Results flagged for a closer look

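For Dppa3, the day 4 response of S4KO differed from that of WT by 2.78 ± 0.50. It stands out because both WT day 4 libraries lay below both WT day 0 libraries, whereas both S4KO day 4 libraries lay above both S4KO day 0 libraries. The edgeR test of this difference gave adjusted p = 0.0606 and an unadjusted p of 0.000144. Over the alternatives the adjusted p ran from 2.57e-05 to 0.303.

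The Dppa3 response of S4KO differed from that of S2/3DKO by 1.43 ± 0.49. In S2/3DKO both day 4 libraries lay below both day 0 libraries, and in S4KO both lay above, but with the length and GC correction the S2/3DKO difference was 0.11. The edgeR test gave adjusted p = 0.448, with 1 gene called in this contrast over all genes. Over the alternatives the adjusted p ran from 0.185 to 1 and the value from 0.77, without S4KO day 4 replicate 1, to 1.86.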

How the results depend on the processing

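Of the 12 counts of called Dppa genes, those for WT day 4 against day 0 (4), S2/3DKO against WT at day 4 (1), S4KO against S2/3DKO at day 4 (0) and S4KO against S2/3DKO in the response (0) stayed within 1.5 times their value under the alternatives other than leaving out a library. For S4KO day 4 against day 0 the count was 1 in the main analysis, 2 with the 1 CPM filter, RLE factors, limma on filtered FPKM with either pseudocount or the replicate block with the length and GC correction, 3 with no filter or the replicate block, 4 with DESeq2, and 0 with only the compared groups or limma without a filter. For S2/3DKO day 4 against day 0 (1) DESeq2 gave 2. For S2/3DKO against WT at day 0 (2), only the compared groups, the length and GC correction with or without the block, and limma with either pseudocount gave 1, and limma without a filter 0. For S4KO against WT at day 0 (1), no filter, DESeq2 and only the compared groups gave 2, and the correction with or without the block and limma without a filter gave 0. For S4KO against WT at day 4 (1), only the compared groups and limma without a filter gave 0. For S4KO against S2/3DKO at day 0 (0), no filter gave 2, and DESeq2 and the correction 1. In the response, S2/3DKO against WT (0) gave 1 with DESeq2 or only the compared groups, and S4KO against WT (0) gave 2 with no filter or DESeq2 and 1 with the 1 CPM filter, RLE factors or limma with either pseudocount. The cause of these changes was not tested.

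Leaving out 1 library at a time gave counts from 3 to 4 for WT day 4 against day 0, 0 to 2 for S2/3DKO and 0 to 3 for S4KO. The range was 0 to 2 for each knockout against WT at day 0, 0 to 1 for each at day 4, 0 to 1 for S4KO against S2/3DKO at day 0 and 0 to 1 for the response of S4KO against WT. Where 1 library was left in a group, it was taken to vary as libraries of other groups do.

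Signs turned only where no call stood. With the length and GC correction the differences became 0.11 for Dppa3 in S2/3DKO day 4 against day 0 (0.10 with the block), 0.27 for Dppa4 in S4KO against WT at day 0 (0.26 with the block), 0.0112 for Dppa2 in S2/3DKO against WT at day 4 and 0.0285 for Dppa2 in the response of S4KO against WT. On FPKM with limma, Dppa4 gave 0.0002 in S4KO against WT at day 0 in each of 3 settings, and 0.0186, 0.0186 and 0.019 in S2/3DKO against WT at day 4. Leaving out 1 library at a time gave ranges across 0 for Dppa2 in S2/3DKO day 4 against day 0 (-1.67 to 0.091), Dppa3 in S2/3DKO against WT at day 0 (-0.0883 to 0.278), Dppa2 and Dppa4 in S2/3DKO against WT at day 4 (-0.3985 to 0.056 and -0.2218 to 0.0506), Dppa2 and Dppa5a in S4KO against WT at day 4 (-0.03 to 0.9847 and -0.3561 to 0.7173), and, for S4KO against S2/3DKO, Dppa5a at day 0 (-0.0198 to 0.4852) and Dppa3 at day 4 (-0.3617 to 0.7323). In the responses the ranges across 0 were those of Dppa2 for S2/3DKO against WT (-0.1712 to 1.63) and S4KO against WT (-0.5959 to 0.4185) and, for S4KO against S2/3DKO, of Dppa2 (-1.63 to 0.1239), Dppa4 (-0.5734 to 0.1728) and Dppa5a (-0.1782 to 0.8957).

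Differences between replicates 1 and 2 correlated between groups at -0.278 to 0.588 over 15 pairs of groups, so the replicate numbers were not taken as pairs. Of the genes called in the response, the share that was higher moved from 7.14% to 20.9% with the correction, 19.1% with RLE factors, 41.5% with no filter, 50.3% with DESeq2 and 54.1% without WT day 4 replicate 2 for S4KO against WT, and from 0% to 42.4%, 33.3%, 62.6% and 55.1% under the first 4 of these for S4KO against S2/3DKO. The number of called genes over all genes ranged over the alternatives from 4080 to 8962 for WT day 4 against day 0 (8157 in the main analysis), 38 to 2708 for S2/3DKO (1315) and 16 to 2884 for S4KO (1663). Against WT at day 0 it ranged from 921 to 6832 for S2/3DKO (5799) and 18 to 4973 for S4KO (3663), both lowest without WT day 0 replicate 1. At day 4 it ranged from 868 to 4267 (2842) and 78 to 1057 (323), and between the knockouts from 334 to 2136 at day 0 (1034) and 632 to 4508 at day 4 (2298). In the responses it ranged from 28 to 3887 for S2/3DKO against WT (1140), 14 to 2008 for S4KO against WT (28) and 1 to 243 for S4KO against S2/3DKO (1). With the length and GC correction, 30 counts of called list genes moved by over 1.5 times and 114 did not. The precision of every comparison is limited by 2 libraries a group, and the lowest count of a Dppa gene in a library was 356.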
